A study of Canis lupus familiaris with 10 samples.

Results

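The chemokine CXCL12, its receptor CXCR4, the CC chemokine receptor CCR2 and the atypical chemokine receptors ACKR1 and ACKR3 are described here in canine visceral adipose tissue (VAT), as 5 of the 19856 genes in the count tables. They were selected on a measured value: the study's authors had called them as changed in the same contrast of the same samples. Gene symbols were matched to the counted genes only for genes called in that way. The fold changes of the 5 genes between the groups are therefore a description. Their adjusted p in this contrast are given below but are not read as a test. VAT was taken by laparotomy from 5 Beagle dogs (3 males, 2 females), first untreated (Pre-ACTH) and then after 25 weeks of tetracosactide, a synthetic ACTH analog that makes the adrenal cortex release cortisol (Post-ACTH). Osmotic pumps, exchanged every 4 weeks, delivered 1.3 to 1.95 μg/kg per day at the start and 6 to 10 μg/kg per day at the end. Each dog served as its own control, so the 10 libraries formed 5 pairs, and dog numbers 1 to 5 follow the animal IDs. No dogs were followed without treatment, so that the effects of treatment and of the time between the biopsies cannot be told apart.

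Chemokines are small secreted proteins that guide migrating cells through G protein-coupled receptors. CXCL12, made mainly by stromal and endothelial cells, retains leukocytes and progenitor cells in tissues through CXCR4. The atypical receptors bind chemokines without classical G protein signalling: ACKR3 takes up and degrades CXCL12, and ACKR1 binds many inflammatory chemokines on venular endothelium and red blood cells. CCR2, the receptor of the monocyte chemoattractant CCL2, recruits monocytes from blood into tissues, adipose tissue included.

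The libraries held 8728330 to 14867529 counted reads, with medians of 13072200 in Pre-ACTH and 13919058 in Post-ACTH, and the smallest was the Pre-ACTH library of dog 3. Normalized counts are reads scaled to the mean of the library sizes with TMM factors, so that 1 read is worth about 1 normalized count. They are not corrected for transcript length, and levels are compared only within a gene. The median log2 fold change over the 13577 genes tested was -0.002. Of the adipocyte markers listed, only LIPE, the hormone-sensitive lipase of fat breakdown, could be matched by symbol. It had normalized counts of 19570 to 25030 in Pre-ACTH and 27650 to 33530 in Post-ACTH. In bulk tissue, fewer cells of a type and less RNA per cell cannot be told apart.

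CXCL12 was lower in Post-ACTH than in Pre-ACTH VAT of every dog. Its normalized counts (ENSCAFG00000007026) in dogs 1 to 5 were 609, 637, 543, 411 and 441 in Pre-ACTH, and 177, 134, 115, 109.8 and 157 in Post-ACTH. The groups did not overlap, and the lowest Pre-ACTH library, that of dog 4, was well above the highest Post-ACTH library, that of dog 1. The mean passed from 528 ± 100 to 139 ± 28.5 normalized counts (SD, n = 5), or 26.2% of the Pre-ACTH mean, with a fitted log2 fold change of -1.93 (SE 0.13). The log2 ratios of the single dogs lay between -2.23 in dog 2 and -1.48 in dog 5. Together the 5 libraries held 2527 CXCL12 reads in Pre-ACTH and 716 in Post-ACTH, and no library held fewer than 118.

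CXCR4, the signalling receptor of CXCL12, had very unequal levels before treatment. Its normalized counts (ENSCAFG00000005109) in dogs 1 to 5 were 326, 102, 283, 55.6 and 30.3 in Pre-ACTH, and 68.7, 20.1, 74.2, 42.8 and 33.8 in Post-ACTH. The Pre-ACTH libraries of dogs 1 and 3 were the highest of all 10, and the groups overlapped because the Pre-ACTH libraries of dogs 4 and 5 were as low as Post-ACTH libraries. The mean was 159 ± 136 in Pre-ACTH and 47.9 ± 23.1 in Post-ACTH (SD, n = 5), with a fitted log2 fold change of -1.42 (SE 0.39). The log2 ratio was -2.21, -2.23 and -1.90 in dogs 1, 2 and 3, -0.36 in dog 4 and 0.15 in dog 5, so that 4 of 5 dogs were lower and dog 5 was slightly higher. The 5 Pre-ACTH levels spanned 10.7-fold. On the log2 scale their SD was 1.45, at the 99.2 percentile of the 1619 genes of similar Pre-ACTH level (within 0.5 log2), whose median SD was 0.282. In Post-ACTH the SD of CXCR4 was 0.74 and its percentile 87.4.

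ACKR3, the scavenger of CXCL12, was lower in Post-ACTH in each dog, by amounts that differed between dogs. Its normalized counts (ENSCAFG00000012206) in dogs 1 to 5 were 1145, 1819, 1444, 1013 and 1144 in Pre-ACTH, and 373, 856, 818, 782 and 858 in Post-ACTH. The groups did not overlap, and among the Post-ACTH libraries dog 1 stood far below the others, which lay close together. The mean was 1313 ± 324 in Pre-ACTH and 737 ± 206 in Post-ACTH (SD, n = 5), with a fitted log2 fold change of -0.86 (SE 0.18). The log2 ratio was -1.61 in dog 1, -1.09 in dog 2, -0.82 in dog 3, -0.37 in dog 4 and -0.42 in dog 5.

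CCR2 had the largest ratio between the groups among the 5 genes, on few reads. Its reads (ENSCAFG00000013786) in dogs 1 to 5 numbered 38, 32, 42, 12 and 32 in Pre-ACTH, and 3, 1, 6, 0 and 6 in Post-ACTH. As normalized counts these were 37.4, 30.96, 59.1, 13.9 and 27.7 in Pre-ACTH, and 3.22, 0.955, 5.30, 0 and 5.79 in Post-ACTH. The groups did not overlap, and each dog was lower in Post-ACTH. The mean was 33.8 ± 16.5 in Pre-ACTH and 3.05 ± 2.56 in Post-ACTH (SD, n = 5), or 9.03% of the Pre-ACTH mean, with a fitted log2 fold change of -3.50 (SE 0.49). The size of the decrease in a single dog is poorly known at this depth. The Pre-ACTH level was 11.6-fold that of Post-ACTH in dog 1 (95% exact interval 3.68 to 58.8), 32.4-fold in dog 2 (5.41 to 1320), 11.1-fold in dog 3 (4.71 to 32.1) and 4.79-fold in dog 5 (1.98 to 14.02). In dog 4, without a Post-ACTH read, the lower limit of the 95% exact interval was 3.46-fold, and a count of 0 allows up to 2.79 normalized counts (3 reads) in that library. These intervals cover counting error only.

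ACKR1 differed from the other members in direction, with higher levels in Post-ACTH in each dog. Its normalized counts (ENSCAFG00000025365) in dogs 1 to 5 were 162, 219.6, 90.0, 148 and 178 in Pre-ACTH, and 262, 308, 217, 223 and 253 in Post-ACTH. The groups overlapped by a narrow margin, since the Pre-ACTH library of dog 2 was just above the Post-ACTH library of dog 3. The mean was 159.5 ± 47.2 in Pre-ACTH and 253 ± 36.1 in Post-ACTH (SD, n = 5), with a fitted log2 fold change of 0.70 (SE 0.13). The log2 ratio was largest in dog 3, at 1.25, which had the lowest Pre-ACTH level, and lay between 0.48 and 0.68 in the other dogs. The log2 SD between dogs was 0.47 in Pre-ACTH and 0.20 in Post-ACTH.

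**Figure D1:**
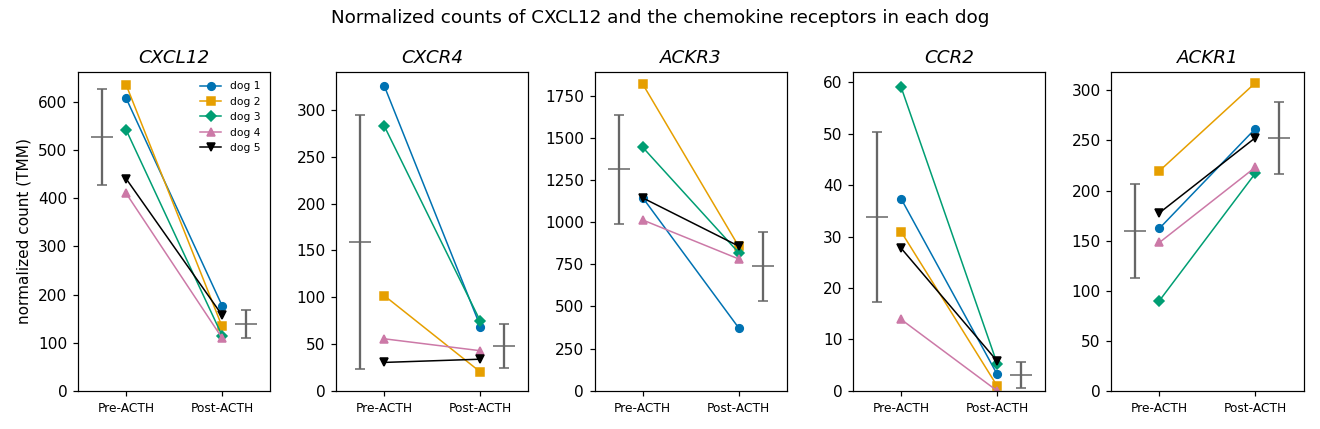
Normalized counts of CXCL12, CXCR4, ACKR3, CCR2 and ACKR1 in each library, with the Pre-ACTH and Post-ACTH values of a dog joined by a line and the mean ± SD of each group (n = 5) in grey. CXCL12, ACKR3 and CCR2 are lower in Post-ACTH in every dog with no overlap of the groups, CXCR4 overlaps because dogs 4 and 5 start low, and ACKR1 is higher in every dog.

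In the paired edgeR quasi-likelihood fit, with Benjamini-Hochberg adjustment over all genes, 2 of the 5 genes, CXCL12 and CCR2, had an FDR under 0.01, where 1.97% of all tested genes did. At an FDR under 0.05 these were 4 of 5, all but CXCR4, against 11.1% of tested genes. Because the genes were selected on this contrast, nothing is read from these counts. The adjusted p was 0.00812 for CCR2 and 0.0192 for ACKR1 in edgeR. The selection shaped these values too, so they do not rank the genes. The count of 2 depended on the dogs and the tool: it was 1 (CXCL12) without any 1 of dogs 1, 3, 4 and 5, and 0 without dog 2. With DESeq2, the tool with which the authors had called these genes on these libraries, it was 5 of 5, as the selection fixed. Likewise by selection, 4 of 5 genes moved in 1 direction in all dogs, against 26.9% of tested genes, and in 3 of 5 the groups did not overlap, against 9.04%.

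**Figure D2:**
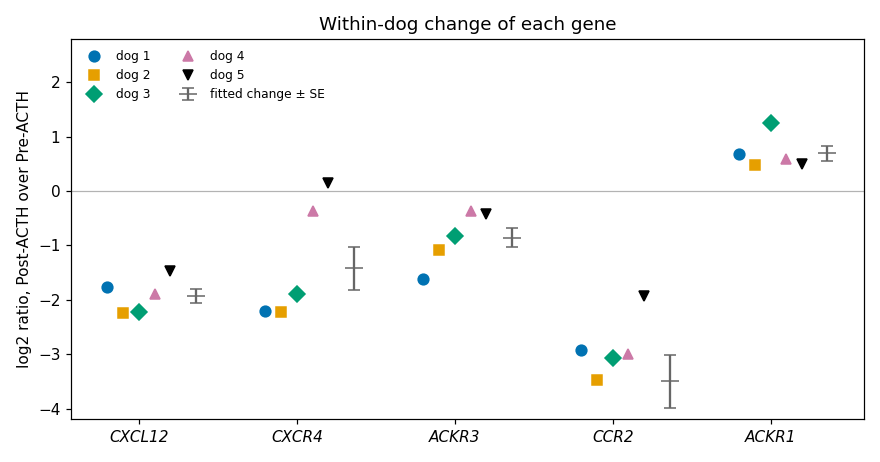
Post-ACTH over Pre-ACTH log2 ratio of each gene in each dog (points, log2 CPM with a prior count of 2), beside the fitted log2 fold change and its SE (grey). CXCL12 ratios lie within -2.23 to -1.48, whereas CXCR4 ratios run from -2.23 to 0.15. The prior count draws the points of CCR2, a gene of few reads, toward 0.

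Within each dog, CXCL12 was set beside its receptors. Relative to CXCR4, the log2 ratio of CXCL12 differed by 0.44 in dog 1, -0.003 in dog 2 and -0.32 in dog 3, so ligand and receptor had similar ratios in these dogs. In dogs 4 and 5, which had little CXCR4 before treatment, the difference was -1.52 and -1.62. Its mean was -0.61 ± 0.92 (SD, n = 5), so the spread between dogs exceeded the mean. As a difference of fitted log2 fold changes it was -0.51, and its size depended on the dogs and the fit, with -0.25 without dog 4, -0.29 without dog 5, -0.80 without dog 1, -0.26 in limma-voom and -0.21 without the dog as a block.

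Relative to ACKR3, the log2 ratio of CXCL12 was lower in each dog. The difference was -0.16 in dog 1 and -1.51 to -1.06 in the other 4 dogs. The mean difference was -1.06 ± 0.54 (SD, n = 5). The reads of CXCL12 per read of ACKR3 in Pre-ACTH lay between 0.350 in dog 2 and 0.532 in dog 1, and in Post-ACTH between 0.140 in dog 3 and 0.476 in dog 1. Apart from dog 1, the Post-ACTH ratio was at most 0.183. The mean ratio was 0.410 ± 0.0711 in Pre-ACTH and 0.219 ± 0.144 in Post-ACTH (SD, n = 5). These ratios of reads also depend on the lengths of the transcripts and are compared only between samples. Between the receptors, the log2 ratio of ACKR3 was above that of CXCR4 in dogs 1, 2 and 3, by 0.60 to 1.15, while the difference was -0.01 in dog 4 and -0.56 in dog 5.

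**Figure D3:**
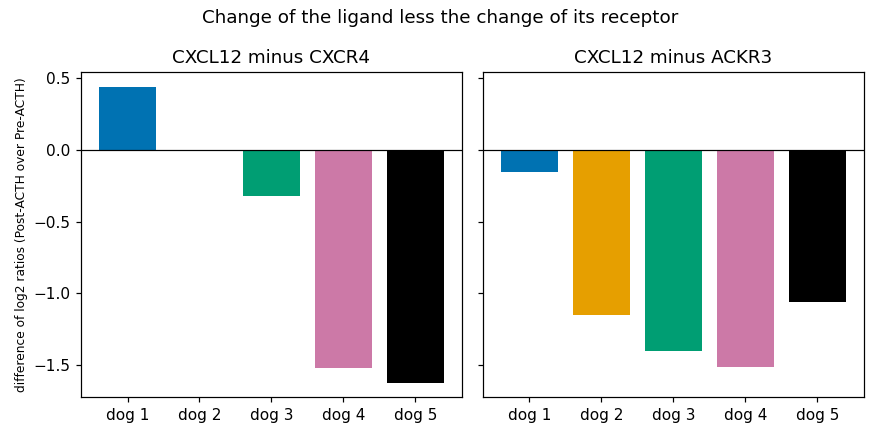
Difference between the Post-ACTH over Pre-ACTH log2 ratio of CXCL12 and that of CXCR4 or ACKR3, with 1 bar for each dog. Against ACKR3 all dogs are below 0, from -1.51 in dog 4 to -0.16 in dog 1, and against CXCR4 dogs 4 and 5 stand apart from dogs 1 to 3.

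Whether the level of a gene differed between dogs, over both samples of each dog, was tested jointly over the dog terms of the fit. This difference was not itself used to select the genes. The test shares its residual spread with the paired treatment contrast, so it is not fully independent of the selection. None of the 5 genes passed an FDR of 0.01 by edgeR's quasi-likelihood test, which 0.0368% of tested genes did. CXCR4 came closest, with an unadjusted p of 0.0172 and an adjusted p of 0.255 (edgeR), followed by ACKR1 with 0.0394 and 0.331. At an unadjusted p under 0.05 these were 2 of 5 genes, against 14.1% of tested genes. For CXCR4 the call depended on the tool, since DESeq2 gave an adjusted p of 0.00456, the lowest over 12 alternatives, of which the highest was 0.365. The adjusted p of CXCL12, ACKR3 and CCR2 lay between 0.444 and 0.463 (edgeR).

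A difference in response between the 3 males and 2 females was tested as a sex by treatment term in edgeR. The log2 ratio of CXCL12 averaged -1.71 in males and -2.23 in females, a fitted difference of 0.52 (SE 0.20, unadjusted p = 0.0339, adjusted p = 1). For CXCR4 the means were -0.81 and -2.07, with a fitted difference of 1.19 (SE 0.71, adjusted p = 1), which was 1.98 without dog 1, 0.76 without dog 5 and 0.66 in limma-voom. Dogs 4 and 5, the dogs with low Pre-ACTH CXCR4, are both male, but dog 1 is male as well. The fitted difference was 0.16 (SE 0.39) for ACKR3, 0.70 (SE 1.14) for CCR2 and -0.26 (SE 0.28) for ACKR1, each with an adjusted p of 1 (edgeR). Over all genes 0.00% passed an FDR of 0.01, or 0 in edgeR and limma-voom and 5 in DESeq2, and 3.20% had an unadjusted p under 0.05 in edgeR (435 genes). With 3 males and 2 females the test has little power, so the lack of a call does not show that the sexes responded alike.

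Other genes of the chemokine system were looked up from lists of ligands, receptors and signalling proteins. Since symbols came from the genes the authors called on these samples, the members found had to differ. Neither their calls and adjusted p nor their directions are independent evidence. None of 20 other chemokine receptors could be matched by symbol. Of 35 ligands 3 were found, and 1 passed an FDR of 0.01: PPBP, the platelet chemokine precursor, rose from 14.3 ± 7.88 to 71.5 ± 59.1 normalized counts (log2 fold change 2.18, SE 0.30, edgeR adjusted p = 0.00791). CXCL14, a chemokine expressed in adipose and epithelial tissue, had 2326 ± 862 in Pre-ACTH and 6167 ± 1657 in Post-ACTH (adjusted p = 0.0238), and CCL24, an eosinophil attractant, 19.3 ± 10.3 and 2.47 ± 3.24 (adjusted p = 0.0737). Of all tested genes, 0.751% rose and 1.22% fell at this threshold. These shares cover genes that the authors did not call as well, so the list counts cannot be weighed against them.

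Of 43 signalling genes downstream of chemokine receptors 10 were found, all with lower fitted levels (median log2 fold change -0.96), and 2 of these fell at an FDR under 0.01. PLCB2, a phospholipase C activated by G protein subunits in leukocytes, fell from 152 ± 42.02 to 62.4 ± 18.1 normalized counts (log2 fold change -1.29, SE 0.13, edgeR adjusted p = 0.00376). DOCK2, the exchange factor that activates Rac in migrating leukocytes, fell from 244 ± 60.0 to 115 ± 34.3 (log2 fold change -1.10, SE 0.16, adjusted p = 0.00875). The fitted log2 fold changes of the others lay between -1.999 for RAC2, the leukocyte Rac, and -0.71 for GNG2, a G protein subunit, without passing the test. Over all 66 list genes found here and below, 3 were called higher and 12 lower. The number of calls depended on the dogs kept: 14 without dog 1, 0 without dog 2, 1 without dog 3, 7 without dog 4 and 3 without dog 5. The count over all tested genes also fell without dog 2. The median log2 fold changes of the lists kept their direction whichever dog was left out.

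Markers of cells that carry these receptors or make the ligand are given beside them, and their part in the members' values was not tested. Like the glucocorticoid-responsive genes below, they had symbols only because the authors called them on these samples. Their calls, adjusted p and directions are therefore not independent evidence. All 8 of 12 pan-leukocyte markers found were lower in the fit (median log2 fold change -1.02), and their summed level was 1259 to 2148 normalized counts in Pre-ACTH and 447 to 1050 in Post-ACTH. Of them LCP1, an actin-bundling protein of leukocytes, fell at an FDR under 0.01 (436 ± 196 to 179.9 ± 67.1 normalized counts, edgeR adjusted p = 0.00988). PTPRC, the CD45 antigen, had 296 ± 117 and 135 ± 36.2 (adjusted p = 0.0212), and CORO1A, an actin regulator of leukocytes, 123 ± 41.7 and 66.2 ± 20.9 (adjusted p = 0.0318). The log2 ratio of CXCR4 was below the median of these markers in dogs 1, 2 and 3 (differences of -1.46, -1.51 and -0.38) and above it in dogs 4 and 5 (1.45 and 0.72). CCR2 was below that median in all 5 dogs, with a mean difference of -1.80 ± 0.65.

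Monocyte and macrophage markers, the cells in which CCR2 is best known, were found for 5 of 19, with 4 lower and C1QB, a complement component of macrophages, higher in the fit, and 0 past an FDR of 0.01 in edgeR. Their summed level was 1583 to 3118 normalized counts in Pre-ACTH and 779.8 to 1798 in Post-ACTH. CSF1R, the macrophage growth factor receptor, had 1285 ± 336 and 769.9 ± 210.0 (adjusted p = 0.0576), and the integrins ITGAM and ITGAX had fitted log2 fold changes of -0.88 and -2.25 (adjusted p = 0.0197 and 0.0133). The log2 ratio of CCR2 lay below the median of these markers in all 5 dogs, with a mean difference of -2.03 ± 0.59 (SD).

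Dendritic cell markers were found for 6 of 11, all lower in the fit (median log2 fold change -1.73), and CD1D and CD83 fell at an FDR under 0.01. CD1D, which presents lipid antigens, fell from 119 ± 42.7 to 13.9 ± 6.93 normalized counts (edgeR adjusted p = 0.00382), and CD83, a marker of mature dendritic cells, fell from 95.5 ± 34.7 to 33.7 ± 12.2 (adjusted p = 0.00941). CD1B was at 0 in all Post-ACTH libraries and had 9.26 to 27.5 normalized counts in Pre-ACTH, and CD1E had 34.1 ± 14.4 and 10.03 ± 7.70 (adjusted p = 0.0529). The lymphocyte markers ICOS, IL2RB (T and NK cells, 2 of 16 found) and BLNK (B cells, 1 of 9) had fitted log2 fold changes between -2.64 and -1.76, with 0 past an FDR of 0.01 in edgeR. Of the mast cell markers 2 of 7 were found, and CPA3, a mast cell protease, fell to 0 to 1.07 normalized counts from 6.07 to 26.7 (adjusted p = 0.00798), while MS4A2 had 14.5 ± 5.22 and 1.39 ± 1.31 (adjusted p = 0.0333). CCR2 was not below all leukocyte lists in each dog. Its log2 ratio was -3.06 in dog 3 and -2.99 in dog 4, where the mast cell median was -3.22 and -3.47. In dog 4 the T and NK cell median was also lower, at -3.70. CCR2 was below both medians in the remaining dogs, and below the dendritic cell median in all 5 dogs. No neutrophil marker (of 7) and no erythroid marker (of 8) could be matched by symbol.

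Beside the ligand, 11 of 16 stromal progenitor and fibroblast markers were found, with 10 lower and ANPEP higher in the fit (median log2 fold change -1.49), and 6 fell at an FDR under 0.01. Among them PI16, a marker of adventitial progenitors, fell by 3.29 on the log2 scale, LUM, a matrix proteoglycan, by 1.49, PDGFRB, a growth factor receptor, by 0.74, and the collagen COL1A2 by 1.68 (edgeR adjusted p = 0.00241, 0.00213, 0.00241 and 0.00351). DCN had 7644 ± 4009 and 3000 ± 473 normalized counts (adjusted p = 0.0120) and COL1A1 had 1281 ± 464 and 386 ± 141 (adjusted p = 0.0105). The summed level of the list was 21670 to 46710 normalized counts in Pre-ACTH and 8300 to 13060 in Post-ACTH. The log2 ratio of CXCL12 lay below the median of these markers in each dog, with differences of -0.73 to -0.24 (mean -0.52 ± 0.18). That of ACKR3 differed from it by -0.09 in dog 1 and lay above it in the other dogs by 0.54 to 0.99. Among mural cell markers 3 of 10 were found, MYH11 and DES higher and NOTCH3 lower in the fit, with 0 past an FDR of 0.01 in edgeR.

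**Figure D4:**
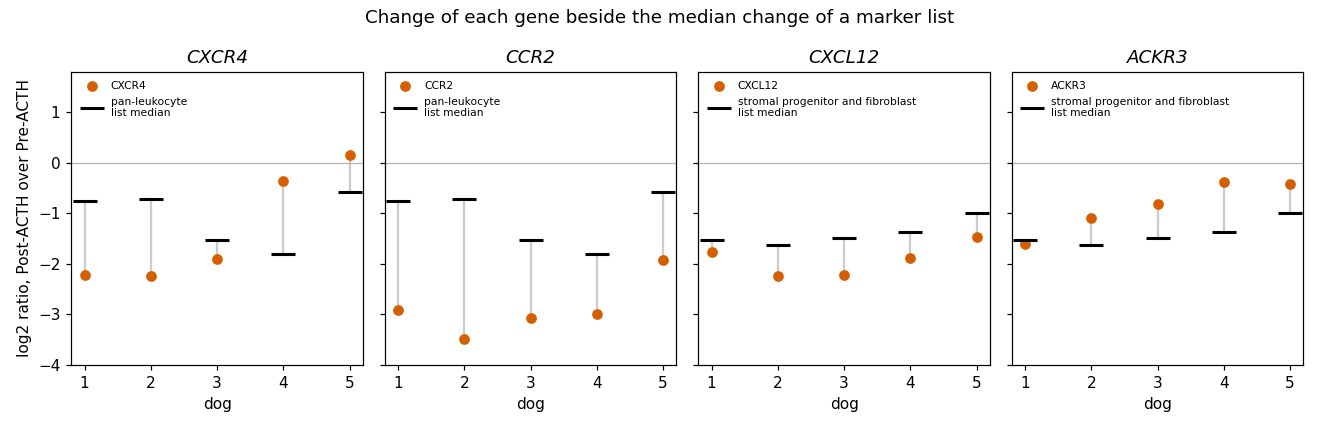
Log2 ratio of Post-ACTH over Pre-ACTH in each dog for 4 genes (points), beside the median log2 ratio of a marker list in the same dog (bars): pan-leukocyte markers for CXCR4 and CCR2, and stromal markers for CXCL12 and ACKR3. CCR2 and CXCL12 lie below the medians of their lists in each dog, though single list genes such as PI16 fell more than CXCL12. CXCR4 lies above its list median in some dogs and below it in others.

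For ACKR1, the 17 general endothelial markers could not be matched by symbol, and 2 of the 7 genes listed as venular markers were found. Whether these 2 genes come from venular cells in this tissue was not tested. VCAM1, the adhesion molecule that captures leukocytes, had 710 ± 131 normalized counts in Pre-ACTH and 1271 ± 359 in Post-ACTH, or 0.82 on the log2 scale (SE 0.14, edgeR adjusted p = 0.0134). CADM3, a cell adhesion gene, had 61.2 ± 10.3 and 126 ± 20.8 (log2 fold change 1.04, SE 0.17, adjusted p = 0.0119), so neither passed 0.01. CADM3 is also a gene next to ACKR1 on the RefSeq assembly, with FCER1A, which the authors did not call, on the other side. Neither range overlaps that of ACKR1 there. The summed level of VCAM1 and CADM3 was 558.5 to 900.8 normalized counts in Pre-ACTH and 1014 to 1867 in Post-ACTH. The single mesothelial marker found, CLDN15 (of 9), had 117 ± 32.7 and 259.9 ± 116 (adjusted p = 0.0198), and the fitted change of LIPE was 0.48 on the log2 scale (SE 0.11, adjusted p = 0.0313). Of 15 genes known to respond to glucocorticoids 11 were found, 10 higher and NR3C1, the glucocorticoid receptor, lower in the fit. Among these FKBP5, the receptor's cochaperone, rose from 1149 ± 461 to 4967 ± 1050 (adjusted p = 0.00633) and GLUL, glutamine synthetase, from 7261 ± 1661 to 17420 ± 4143 (adjusted p = 0.00954).

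The genes whose levels ran most alike over the 10 libraries were found by the root mean square distance of log2 levels, each centred on the gene's mean, among the genes with a symbol. For CXCL12 these were C1QTNF6 (0.309), MFSD4A (0.311) and PLXDC1 (0.312). For CXCR4 they were C3, the central complement component (0.568), IL33, an alarmin cytokine of stromal cells (0.663), and MATN2, a matrix protein (0.7). The distance is not scaled by a gene's own spread, which was wide for CXCR4, so distances are not compared between the 5 genes. The genes nearest to ACKR3 were TTC39B (0.329), PREX1 (0.339) and PXYLP1 (0.340), and those nearest to CCR2 were TRIM22 (0.551), CD1D (0.558) and SEMA4A (0.572). For ACKR1 they were ZBTB16 (0.192), a transcription factor among the glucocorticoid-responsive genes listed, B3GNTL1 (0.193) and NCLN (0.199). With genes without a symbol counted, the named neighbours of ACKR3 ranked 9, 18 and 20, and those of the other members 2 to 11. The libraries share their treatment groups and dogs, so a small distance reflects both, and it is given with no test.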

How the data were processed

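RNA-seq counts of 10 VAT libraries were analysed, and samples were assigned to condition, dog and sex from their labels. The submitters' processing notes name STAR, featureCounts and CanFam3.1, and the authors deposited raw counts of reads per gene, 1 table per sample. Versions, strand setting and the treatment of multi-mapped reads are not given in the sources used here, and the labels and the paper differ on library kit and read length. The paper's normalization to transcript length was not repeated.

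Tests were quasi-likelihood F tests of edgeR 4.0.16 (R 4.3.3) on the counts, with TMM factors and the dog as a block. Genes needed 10 or more reads in 1 or more samples, which 13577 had, and the threshold was FDR < 0.01. Log2 levels used a prior count of 2. The SE of a fitted log2 fold change is its absolute value divided by the square root of its F statistic. It is approximate, and unreliable for genes with few reads. The block rests on the animal IDs. Deviations of same-dog libraries from their group means correlated by 0.274 on average (0.0772 to 0.412), and those of different dogs by -0.0678 (at most 0.206). Centring on the group means ties these averages to each other, so the negative average adds no evidence of its own. Gene symbols came from the study's supplementary list of genes called with a paired DESeq2 fit, which names 1079 of 1190 genes, or 7.95% of tested genes. RefSeq names were used only for the genes next to ACKR1. The members and gene lists were chosen with earlier results of these data known. Named are the members, up to 4 called genes per list and direction by lowest p, the first 3 genes found of each cell type list, and the 3 nearest genes of each member. CXCL14, CCL24, RAC2, GNG2, C1QB, ANPEP and NR3C1 were named after their values were seen. The code was tested on simulated counts. Alternatives were DESeq2 1.42.0, limma-voom (limma 3.58.1), other scalings and filters, no block, and each dog left out.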

Additional observations from a re-analysis of the deposited data

Results flagged for a closer look

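Among the 10 groups of 5 libraries formed by the 5 genes and the 2 conditions, 1 held a library far from the rest. The Post-ACTH library of dog 1 had 373 normalized counts of ACKR3, whereas the other 4 dogs had 782 to 858, and the gap to the nearest of them took up 0.843 of the group's range, above Dixon's limit of 0.71. Chance flags about 1 in 20 such groups. The same dog had 1145 normalized counts of ACKR3 in Pre-ACTH, within the range of the others, and the smallest difference between the log2 ratios of CXCL12 and ACKR3 (-0.16).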

How the results depend on the processing

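Of 455 values recomputed under alternatives, 424 kept their direction and stayed within 1 SD between dogs, within 1.5 times or on the same side of the threshold, by kind of value. Where dogs differ widely this margin is lenient. The CXCL12 against CXCR4 difference of -0.51 counted as kept at -0.21, because its SD was 0.92. Members and list genes were selected on this contrast, so their kept directions are not independent evidence. A further 16 were counts that shrank and 11 were counts that grew or, for CXCR4 between dogs, an adjusted p that passed, and 4 values changed sign. The log2 fold changes of the members kept their sign in 13 of 13 alternatives, with ranges of -2.04 to -1.85 for CXCL12, -1.75 to -1.17 for CXCR4, -0.98 to -0.68 for ACKR3, -3.97 to -3.28 for CCR2 and 0.58 to 0.76 for ACKR1. The edgeR adjusted p of CCR2 was above 0.01 whichever dog was left out (0.0121 to 0.0413), and that of CXCL12 was 0.0142 without dog 2. Because the members were selected on this contrast, these values are not read as tests of them. The Post-ACTH against Pre-ACTH count of 268 genes was 1180 with DESeq2, 438 with a filter of at least 1 read and 1 (without dog 2) to 318 when a dog was left out. Without the replicate block, that is without pairing by dog, it was 262. Of the 66 list genes 15 were called, 66 with DESeq2 (fixed by the selection, since the authors had called them with DESeq2 on these samples), 24 with the filter of at least 1 read, 13 without the replicate block, and 0 to 14 when a dog was left out. The 5 genes that differed between dogs were 432 with DESeq2, 1 with limma-voom, 15 with the filter of at least 1 read and 1 to 8 when a dog was left out. The sex by treatment count of 0 was 5 with DESeq2. When a dog was left out, the sex by treatment difference ran from -0.67 to 0.13 for ACKR1 (sign changed without dog 3), from -0.052 to 0.56 for ACKR3 (changed without dog 4, and without dog 5 at -0.008), from -0.14 to 1.63 for CCR2 (changed without dog 5), and from 0.76 to 1.98 for CXCR4. The cause of the other changes was not tested. Depth limits CCR2, with at most 6 reads in any Post-ACTH library.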
